A study of Mus musculus with 14 samples.

Results

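The death receptor and necroptosis genes described here are 9 genes chosen by name for their place in a single signaling pathway: Fas, Fasl, Fadd, Casp8, Cflar, Ripk1, Ripk3, Mlkl and Zbp1. The accessions of the array's probes, matched to RefSeq symbols, placed them on 15 of 56605 probes, with 1 probe each for Fasl, Fadd, Casp8, Ripk3 and Mlkl, 2 each for Fas, Ripk1 and Zbp1, and 4 for Cflar. The study asked how the loss of STING, an adaptor that senses cyclic dinucleotides made in response to cytosolic DNA, changes the response of mice to collagen-induced arthritis. Spleen cell RNA of 7 WT mice and of 7 Sting gt/gt mice was hybridized to one-colour Agilent arrays, 14 in all, with 1 array per mouse. All mice had the C57BL/6 background, were 10 to 14 weeks old and were killed 2 weeks after a single intradermal injection of chicken collagen type II (CII) in complete Freund's adjuvant (CFA), an oil emulsion with killed mycobacteria. Every mouse therefore had CFA and CII, and the genotype was the only labelled difference. Sting gt/gt mice carry the golden ticket allele (Tmem173gt), a chemically induced point mutation that leaves no functional STING protein in any cell. The mutant mice came from another laboratory's colony and the WT mice were bought, so the colony and the genotype cannot be told apart.

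Fas ligand (Fasl), made by activated T cells and NK cells, binds the receptor Fas, which recruits the adaptor FADD and through it caspase-8. Active caspase-8 starts apoptosis, and c-FLIP, the product of Cflar, competes with caspase-8 for FADD and holds this step back. When caspase-8 is blocked, the kinases RIPK1 and RIPK3 associate, RIPK3 phosphorylates the pseudokinase MLKL, and MLKL breaks the plasma membrane, which is called necroptosis. ZBP1, a sensor of Z-form nucleic acids whose gene is induced by interferon, can bring RIPK3 into this complex without a death receptor. In the spleen, Fas and Fas ligand are known for removing activated and self-reactive lymphocytes.

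The values are log2 signals relative to the 75th percentile of the same array, so 0 is a spot brighter than 75% of the non-control spots. They rank a gene between mice, not genes against each other. On each array 30781 to 34400 probes were well above background, and all 15 probes of the 9 genes were so on all 14 arrays. The correlation of any array with any other was 0.962 to 0.993. The files show that replicates 1 to 3 of both genotypes were scanned on 1 day (scan day 1) and replicates 4 to 7 on another (scan day 2), and the days lay apart on principal component 1, which held 43% of the variance. On scan day 2 the slides held 1 genotype each, so slide and genotype cannot be told apart there. Markers of B cells (8 of 8) and T cells (8 of 8) were well above background on every array, and so were 9 of 9 erythroid markers although red cells had been lysed. The transcript of Sting1 itself lay at 2.35 to 2.85 in WT mice and at 2.45 to 2.77 in mice with the mutation (log2 difference 0.04, SE 0.10). A point mutation need not change a transcript's level, so this does not check the genotype.

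Promoters are shown for 3 of the genes, taken from RefSeq on GRCm38.p6, each as the 250 bases before the annotated start, 5′ to 3′ on the gene's strand. Fadd is shown because it was the single gene of the 9 past the threshold, Mlkl because its difference came next to it in size, and Fas because it is the receptor at the top of the pathway. Capitals mark GGGCGG, the GC box bound by Sp1, and TTCNNNGAA, the core of STAT-binding sites. A motif of 2 copies of GAAA with 2 bases between them, the core of interferon-response elements, was searched as well, all on both strands in windows that also took in the 50 bases after the start.
Fadd, chr7:144582442-144582691, minus strand: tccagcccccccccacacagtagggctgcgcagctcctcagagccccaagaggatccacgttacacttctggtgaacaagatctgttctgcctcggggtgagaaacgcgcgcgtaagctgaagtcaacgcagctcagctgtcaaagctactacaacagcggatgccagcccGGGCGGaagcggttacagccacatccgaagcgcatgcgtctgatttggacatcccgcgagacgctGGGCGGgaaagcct
Fas, chr19:34290409-34290658, plus strand: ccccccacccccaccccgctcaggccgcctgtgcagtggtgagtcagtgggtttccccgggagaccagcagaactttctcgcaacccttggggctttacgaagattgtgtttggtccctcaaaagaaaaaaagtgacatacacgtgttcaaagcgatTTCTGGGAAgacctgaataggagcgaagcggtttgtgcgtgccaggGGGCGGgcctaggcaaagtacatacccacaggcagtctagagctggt
Mlkl, chr8:111338206-111338455, minus strand: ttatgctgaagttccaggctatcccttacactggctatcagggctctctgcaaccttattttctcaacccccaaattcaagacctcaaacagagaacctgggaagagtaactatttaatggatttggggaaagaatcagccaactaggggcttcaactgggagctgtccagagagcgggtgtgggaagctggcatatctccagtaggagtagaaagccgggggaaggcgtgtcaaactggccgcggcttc
With positions counted from the start, negative before it, the Fadd window held GGGCGG at -79 and -14. The Fas window held TTCNNNGAA at -93 and GGGCGG at -47 and 28. The Mlkl window held none of these motifs. Among 32851 windows of the same length, GGGCGG was in 35.7%, TTCNNNGAA in 8.30% and the GAAA pair in 3.44%. Windows were given for 8 of the 9 genes, Zbp1 being the exception, and among them the GAAA pair was found in that of Cflar and in 1 of the 2 windows of Ripk1. These letters describe the sequence and say nothing of which factor was bound.

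The 9 genes differed little between the genotypes. Fadd was higher in Sting gt/gt mice, by 1.16-fold (95% interval 1.01 to 1.32), and it alone passed an unadjusted p of 0.05 by limma. Over all genes tested, 3.48% passed this threshold and 1.86% passed it in the same direction. After Benjamini-Hochberg adjustment none of the 9 passed, with 0.00401% of all genes doing so (1 gene of 24908). The log2 difference was above 0 in 9 of 9 genes, from 0.02 for Fasl to 0.21 for Fadd, but without scaling between arrays it was above 0 in 6, as Casp8, Cflar and Fasl turned. The median over the 9 was 0.08, where 54.5% of all genes lay above 0 with a median of 0.02. The intervals are those of the fit without covariates. The widest was that of Fasl, 0.691-fold to 1.48-fold, and the narrowest that of Ripk1, 0.943-fold to 1.18-fold. They do not cover every fit. With slide as a fixed block, the log2 differences of Mlkl (-0.16, SE 0.20) and Zbp1 (-0.31, SE 0.23) fell below their intervals. Those intervals began at -0.09 and -0.30. That fit uses 5 arrays of scan day 1 alone (those of 3 WT and 2 Sting gt/gt mice). None of the 9 genes split the 14 mice by genotype without overlap, and 0.0442% of all genes did. Of the 15 probes 1 passed an unadjusted p of 0.05 by limma, that of Fadd, with 3.43% of all probes past it. In splenocyte RNA, fewer cells of a type and less RNA per cell cannot be told apart.

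**Figure D1:**
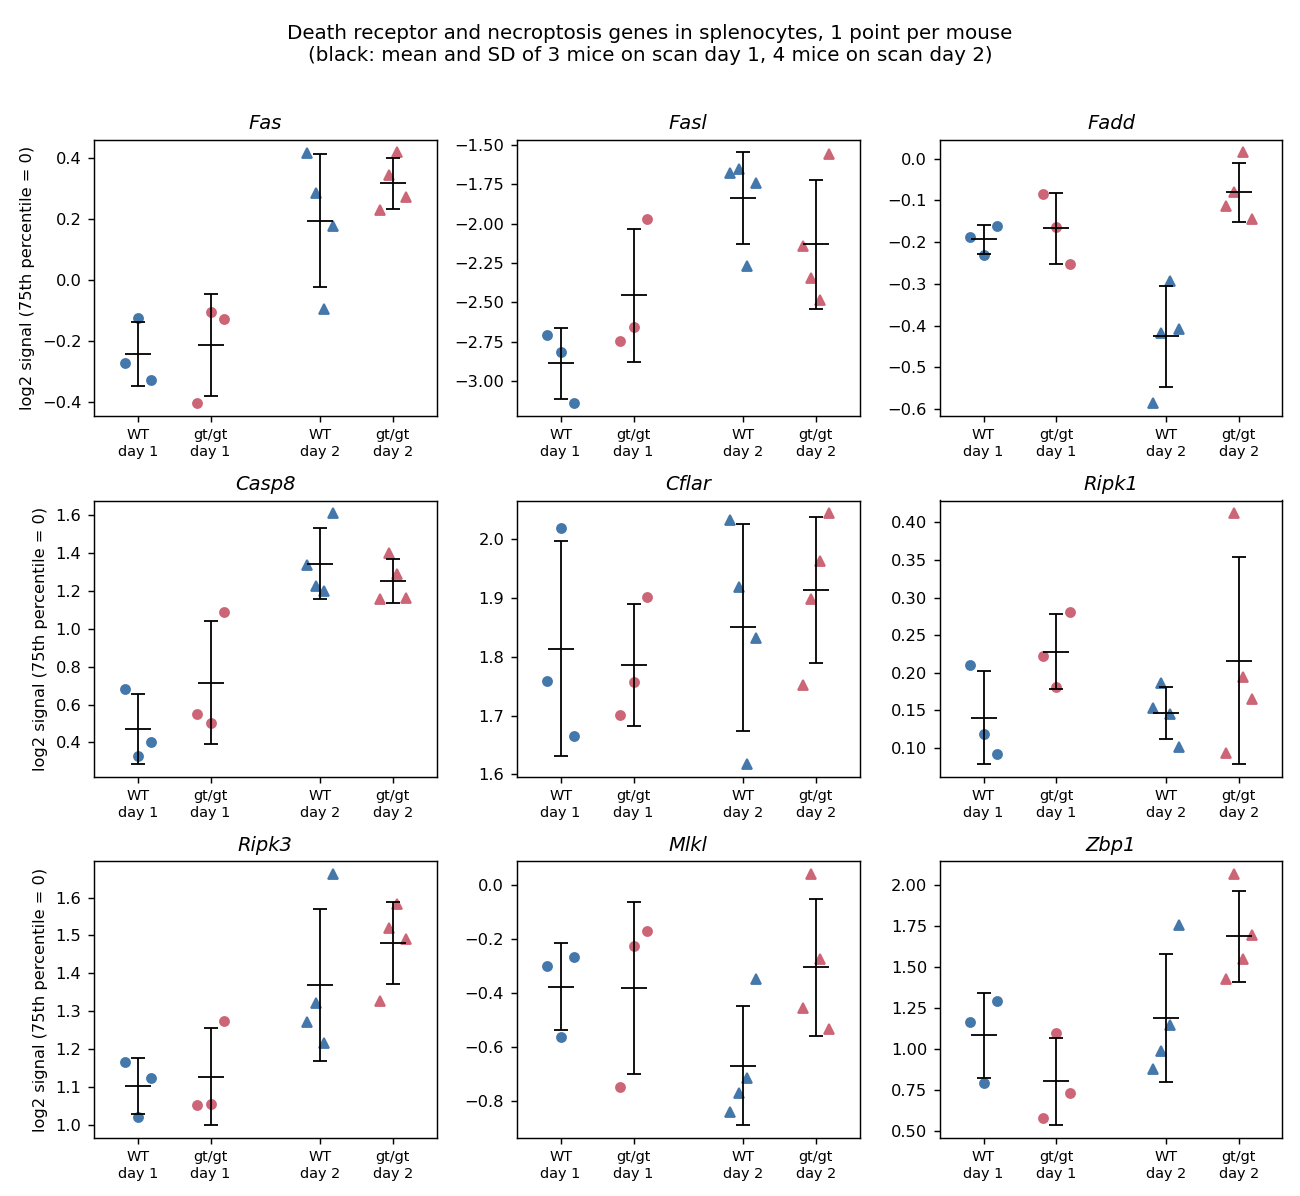
Log2 signal of the brightest probe of each of the 9 genes (75th percentile of the array at 0), 1 point per mouse, by genotype and scan day, with mean and SD of 3 mice (scan day 1) or 4 mice (scan day 2). Fadd on scan day 2 is the single scan day and gene for which all Sting gt/gt mice (-0.15 to 0.02) lie above all WT mice (-0.59 to -0.29).

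The receptor Fas showed no genotype difference beyond the spread of the mice. The log2 signal of its brighter probe ran from -0.33 to 0.42 (median -0.10) for WT and from -0.40 to 0.42 (median 0.23) for Sting gt/gt mice, so the groups covered nearly one range. The log2 difference was 0.08 (SE 0.16, adjusted p = 0.9998 by limma), and a second probe gave 0.11 (SE 0.12). At the brighter probe, what separated the mice was the scan day. All 8 mice of scan day 2 lay above all 6 mice of scan day 1, though WT replicate 6 (-0.096) only just exceeded the nearest of them. The mean log2 shift between the days was 0.48 (adjusted p = 8.4e-04 by limma). The second probe did not share this rise. Its means on scan days 1 and 2 were -3.29 and -3.40 in WT and -3.11 and -3.35 in Sting gt/gt mice. At the brighter probe the genotype difference was 0.03 within scan day 1 and 0.12 within scan day 2. Its change did not pass (exact permutation p = 0.581 within scan days).

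Fasl, the ligand, had the widest spread within genotype and scan day of the 9 genes (SD 0.35, percentile 78.4 of all genes). WT mice ran from -3.14 to -1.65 (median -2.27) and Sting gt/gt mice from -2.74 to -1.56 (median -2.34). Its log2 difference over all mice was 0.02 (SE 0.26, adjusted p = 0.9998 by limma). The sign of the difference was not the same on both scan days. On scan day 1 the WT mice had -2.71, -2.81 and -3.14 and the Sting gt/gt mice -2.74, -2.65 and -1.97, a log2 difference of 0.43, with the last mouse standing above the others. The WT mice of scan day 2 had -1.68, -1.65, -2.27 and -1.74 and the Sting gt/gt mice -2.14, -2.34, -2.48 and -1.56, a log2 difference of -0.30. The groups overlapped on both days, and the exact permutation test of the change between days gave p = 0.0786 (two-sided, 1400 splits within scan days).

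Within scan day 2, before adjustment, Fasl correlated with the markers of NK and cytotoxic cells. Across the 8 mice of scan day 2 its log2 signal correlated with the mean log2 signal of 9 such markers (Pearson's r = 0.755, exact permutation p = 0.0125, Spearman's rho = 0.881, exact p = 0.00724, and r = 0.809 without the 2 mice farthest from the median of the marker mean). On scan day 1, with 6 mice, r was 0.875 (exact permutation p = 0.0569) and rho 0.486 (exact p = 0.356), and without the 2 farthest mice r was -0.912, so that relation rested on them. It was 1 of 12 relations computed, and after Benjamini-Hochberg adjustment none was under 0.05 (lowest 0.0751). The 4 relations of Fas with the means of B-cell and germinal centre markers within each scan day had exact permutation p-values of 0.444 to 0.965 for Pearson's r and 0.0962 to 1 for Spearman's rho, the lowest for germinal centre markers on scan day 2 (rho = 0.643). The marker mean itself ranged from -0.95 to -0.20 for WT and from -0.72 to 0.29 for Sting gt/gt mice, and all 9 markers were detected on all arrays.

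Fadd, the adaptor that joins Fas and other death receptors to caspase-8, was the gene of the 9 that differed most. In WT mice its log2 signal was -0.19, -0.23 and -0.16 on scan day 1 and -0.59, -0.42, -0.29 and -0.41 on scan day 2. The Sting gt/gt mice had -0.09, -0.16 and -0.25 on scan day 1 and -0.11, -0.08, 0.02 and -0.15 on scan day 2. The genotypes mixed on scan day 1 and did not overlap on scan day 2, where the WT mice were the low ones. Over all mice the mean ± SD was -0.33 ± 0.15 in WT and -0.12 ± 0.08 in Sting gt/gt mice, 7 each. Of the 7 Sting gt/gt mice, 5 lay above the highest WT mouse. The log2 difference was 0.21 (SE 0.09, unadjusted p = 0.0325, adjusted p = 0.9998 by limma). The exact two-sided permutation test over all 3432 splits of the mice gave p = 0.00583, and the exact Mann-Whitney test gave p = 0.00699. By the Mann-Whitney test 2.87% of all genes passed an unadjusted p of 0.05, and the adjusted p of Fadd was 0.993. The permutation test was not run over all genes. The spread of Fadd within genotype and scan day was at percentile 2.55 among all genes tested.

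The Fadd difference was seen on scan day 2. Within scan day 1 it was 0.03 (exact permutation p = 0.7, where the smallest that 3 mice against 3 allow is 0.1) and within scan day 2 it was 0.34 (1.27-fold, adjusted p = 0.0923 by limma, exact permutation p = 0.0286, the smallest that 4 against 4 allow). Groups without overlap were found for 14.7% of all genes on that day. There, 3 of the 9 genes, Fadd, Mlkl and Zbp1, passed an unadjusted p of 0.05 by limma where 23.3% of all genes did (11% upward). On scan day 1 none of the 9 passed it, with 3.86% of all genes past it, and none had genotypes apart without overlap, with 9.23% of all genes so. The change of the Fadd difference between days was 0.32 (exact permutation p = 0.03 within scan days, adjusted p = 0.243 by limma). With scan day as a block the pooled difference passed the unadjusted threshold, as 7.27% of all genes did (unadjusted p = 0.0204, adjusted p = 0.666 by limma). With slide as a fixed block, which uses 5 arrays of scan day 1 alone (those of 3 WT and 2 Sting gt/gt mice), it was 0.07 (adjusted p = 0.9998 by limma), and with slide as a random block 0.15 (adjusted p = 0.9999 by limma), past no threshold. With the replicate number as a block it was 0.21 and did not pass (unadjusted p = 0.0532, adjusted p = 0.781 by limma). The call was also lost with each array centred on its median (0.20, adjusted p = 0.9999 by limma) and, one mouse at a time, without WT replicate 4, 5 or 7 or Sting gt/gt replicate 5 or 6, where the difference lay between 0.17 and 0.20.

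**Figure D2:**
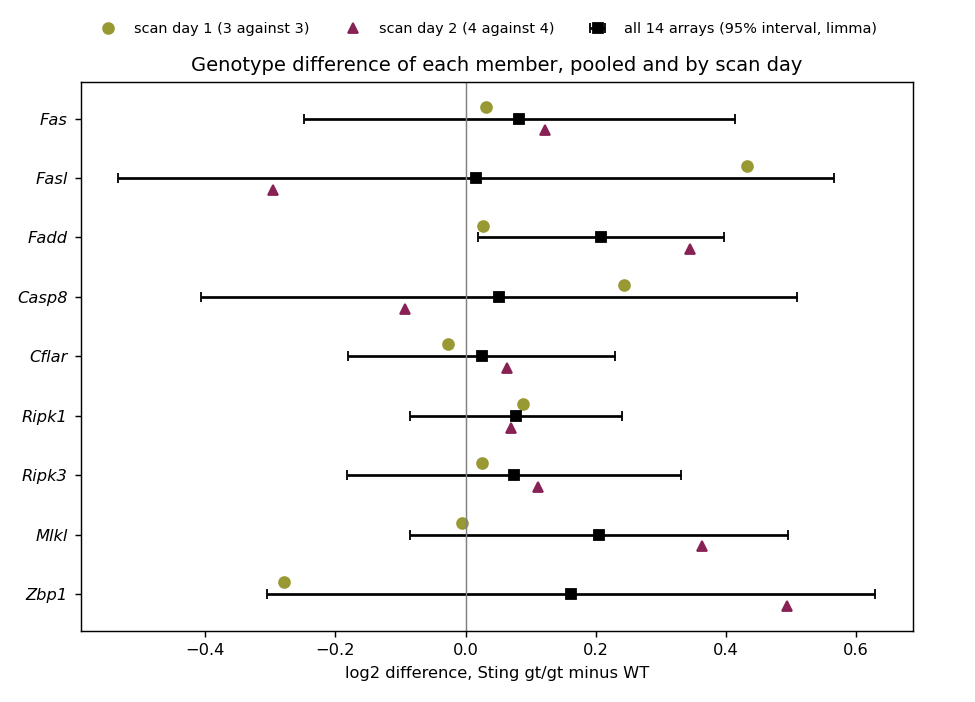
Log2 difference (Sting gt/gt minus WT) of the brightest probe of each of the 9 genes over all 14 arrays, with limma's 95% interval (squares), and within scan day 1 (circles, 3 mice against 3) and scan day 2 (triangles, 4 against 4). The interval of Fadd alone stays above 0, from 0.02 to 0.40, and Fasl, Casp8, Cflar, Mlkl and Zbp1 have their 2 days on either side of 0.

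Casp8, the protease that turns Fas signaling into apoptosis, and Cflar, its inhibitor, showed no genotype difference. Casp8 ran from 0.33 to 1.61 (median 1.20) for WT and from 0.50 to 1.40 (median 1.15) for Sting gt/gt mice. Each Sting gt/gt mouse lay within the range of the WT mice. Its log2 difference was 0.05 (SE 0.22, adjusted p = 0.9998 by limma), with 0.24 on scan day 1 and -0.09 on scan day 2. Of the 9 genes it moved most with the scan day, by 0.70 (adjusted p = 3.4e-04 by limma), and all 8 mice of scan day 2 (1.15 to 1.61) were above all 6 of scan day 1 (0.33 to 1.09). Read from their brightest probes, 5 of the 9 genes passed an adjusted p of 0.05 for the scan day by limma. These were Casp8, Fasl, Zbp1, Fas and Ripk3, each higher on scan day 2. Of all genes 38.8% passed, that is, 17.1% higher and 21.6% lower on that day.

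Cflar had 4 probes that were not of one sign. Its brightest ran from 1.62 to 2.03 (median 1.83) for WT and from 1.70 to 2.04 (median 1.90) for Sting gt/gt mice, with a log2 difference of 0.02 (SE 0.10, adjusted p = 0.9998 by limma). The others gave -0.09, 0.06 and 0.14. Probes of 1 gene can read different transcripts, and which transcripts these probes read was not examined. The dimmest of them, with medians of -2.88 for WT and -2.66 for Sting gt/gt mice, had a log2 difference of 0.37 on scan day 2 and -0.17 on scan day 1.

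**Figure D3:**
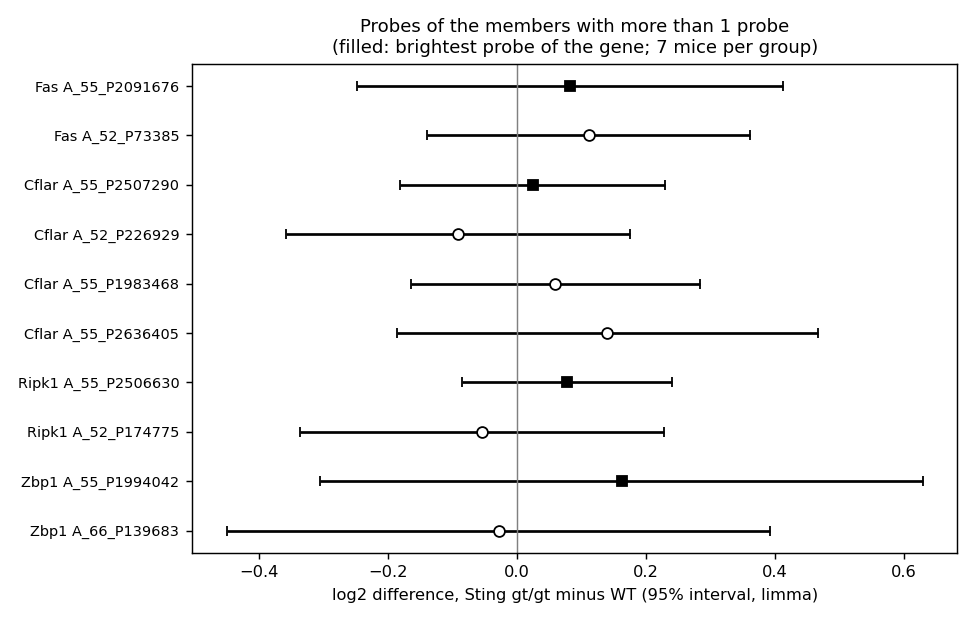
Log2 difference (Sting gt/gt minus WT) with limma's 95% interval for each of the 10 probes of the 4 genes with more than 1 probe, the brightest probe of each gene filled (7 mice per group). All 10 intervals cross 0, and the probes of Cflar, Ripk1 and Zbp1 lie on both sides of it.

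The kinases RIPK1 and RIPK3, which pass the signal on to necroptosis, were close between the genotypes. Ripk1 ran from 0.09 to 0.21 (median 0.15) for WT and from 0.09 to 0.41 (median 0.19) for Sting gt/gt mice. The highest value was that of Sting gt/gt replicate 5, and 3 Sting gt/gt mice lay above the highest WT mouse. The log2 difference was 0.08 (SE 0.08, adjusted p = 0.9998 by limma), with 0.09 and 0.07 on scan days 1 and 2, and the exact two-sided permutation test gave p = 0.0763. A second probe of Ripk1 gave -0.05 (SE 0.13). The spread of Ripk1 was at percentile 2.43 of all genes, and its mean shift between scan days was -0.003.

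Ripk3 ran from 1.02 to 1.66 (median 1.22) for WT and from 1.05 to 1.58 (median 1.33) for Sting gt/gt mice, so that every Sting gt/gt mouse lay within the range of WT mice. Its log2 difference was 0.07 (SE 0.12, adjusted p = 0.9998 by limma), with 0.02 within scan day 1 and 0.11 within scan day 2. Ripk3 was higher on scan day 2 by 0.31 (adjusted p = 0.0113 by limma). Within scan day 2 its log2 signal correlated with the mean of 9 markers of macrophages and monocytes, cells that express it (n = 8 mice, Pearson's r = 0.733, exact permutation p = 0.0460, Spearman's rho = 0.643, exact p = 0.0962, r = 0.560 without the 2 farthest mice), and on scan day 1 r was 0.663 (n = 6, exact permutation p = 0.15, rho 0.143, exact p = 0.803, r = -0.489 without the 2 farthest). Neither passed Benjamini-Hochberg adjustment over the 12 relations (0.171 and 0.3). The marker mean was 4.14 to 4.45 for WT and 4.13 to 4.58 for Sting gt/gt mice.

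Mlkl, which encodes the pseudokinase that opens the membrane, came next to Fadd in size. On scan day 1 its log2 signal was -0.30, -0.56 and -0.27 in WT and -0.75, -0.23 and -0.17 in Sting gt/gt mice. The later scan day gave -0.84, -0.77, -0.72 and -0.35 in WT and -0.46, 0.04, -0.27 and -0.53 in Sting gt/gt mice. The WT mice of scan day 2 were low except replicate 7, which lay among the Sting gt/gt mice. Over all mice the log2 difference was 0.21 (1.15-fold, 95% interval 0.943 to 1.41, adjusted p = 0.9998 by limma), and the exact two-sided permutation test gave p = 0.152. Within scan day 1 the difference was -0.01 and within scan day 2 it was 0.36 (unadjusted p = 0.0471, adjusted p = 0.209 by limma, exact permutation p = 0.0857). The change between the days, 0.37, did not pass (exact permutation p = 0.19 within scan days). Leaving out 1 mouse at a time moved the pooled value between 0.14 and 0.27.

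Zbp1, the interferon-induced sensor, was the gene whose genotype difference changed most between scan days. On scan day 1 the WT mice had 1.17, 0.79 and 1.29 and the Sting gt/gt mice 0.58, 1.1 and 0.73. Those of scan day 2 had 0.88, 0.99, 1.15 and 1.75 (WT) and 1.43, 2.07, 1.55 and 1.70 (Sting gt/gt). Sting gt/gt mice thus tended to lie lower on the 1st day and higher on the 2nd, with overlap on both and with WT replicate 7 inside the Sting gt/gt range. The log2 difference was -0.28 on scan day 1 (exact permutation p = 0.2) and 0.49 on scan day 2 (unadjusted p = 0.0423 by limma, exact permutation p = 0.114). Pooled, it was 0.16 (SE 0.22, adjusted p = 0.9998 by limma). The change between the days was 0.77, with an exact permutation p of 0.0357 within scan days and an adjusted p of 0.215 by limma. Fadd and Zbp1 were the 2 of 9 genes past an unadjusted p of 0.05 for this change, as were 18% of all genes, and neither of them passed after adjustment, as 0.767% of all genes did. The second probe of Zbp1 ran the same way at -0.33 and 0.20, but its change of 0.52 did not pass (exact permutation p = 0.23) and its pooled value was -0.03 (SE 0.20).

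Before adjustment, Zbp1 followed the interferon-stimulated genes within scan day 1. Across its 6 mice the log2 signal of Zbp1 correlated with the mean of 25 such genes (Pearson's r = 0.914, exact permutation p = 0.00694, Spearman's rho = 0.943, exact p = 0.0167, r = 0.776 without the 2 farthest mice), and across the 8 mice of scan day 2 less closely (r = 0.485, exact permutation p = 0.225, rho = 0.524, exact p = 0.197, r = 0.663 without the 2 farthest). Whether the 2 days differed in this was not tested. Neither exact permutation p of r passed Benjamini-Hochberg adjustment over the 12 relations (0.0751 and 0.385). For Mlkl, known as interferon-inducible too, the same relation gave r = 0.788 (exact permutation p = 0.0736, rho = 0.486, exact p = 0.356, r = 0.529 without the 2 farthest) and r = 0.204 (exact permutation p = 0.627, rho = 0.143, exact p = 0.752, r = 0.414). The list itself lay lower in Sting gt/gt mice for 21 of 25 genes, 2 of them past the unadjusted threshold by limma, where 1.62% of all genes passed it downward, with means of 1.54 to 2.25 for WT and 1.44 to 1.98 for Sting gt/gt mice (exact permutation p = 0.299). Within scan day 1, where the Zbp1 difference was -0.28, 23 of the 25 genes lay lower in Sting gt/gt mice, and within scan day 2, where it was 0.49, 18 of the 25 did.

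**Figure D4:**
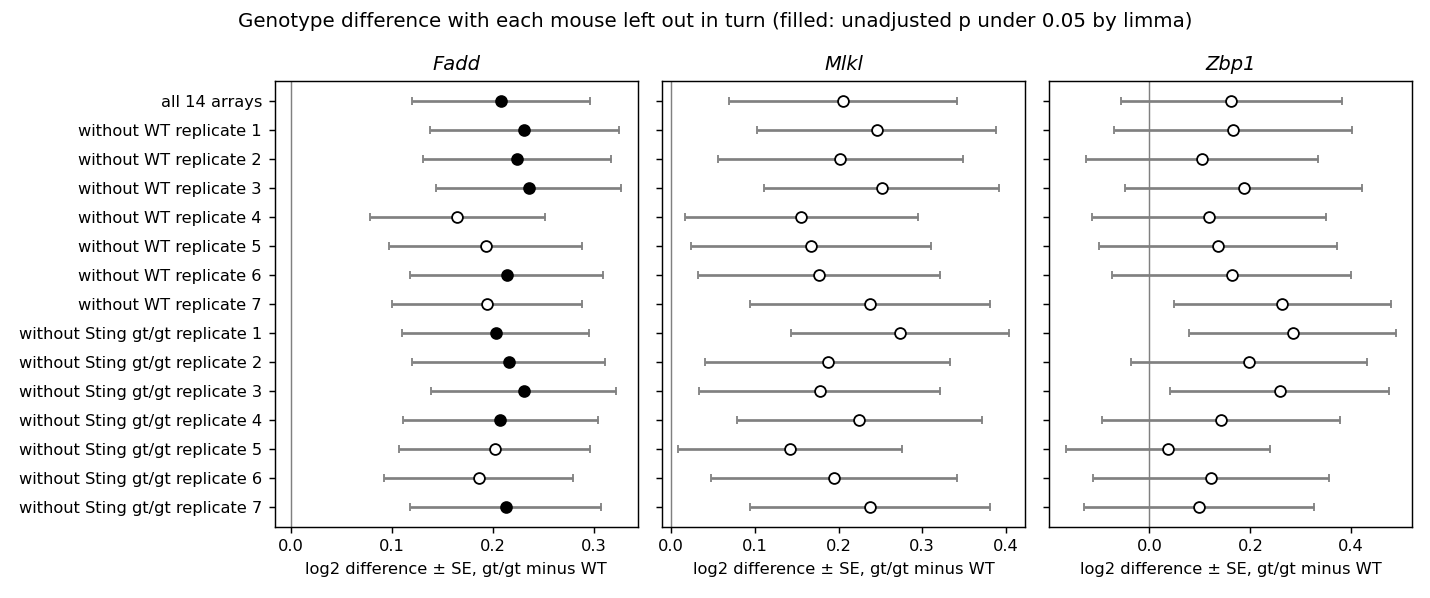
Log2 difference (Sting gt/gt minus WT) of Fadd, Mlkl and Zbp1 with limma's standard error, over all 14 arrays and with each mouse left out in turn, filled where the unadjusted p was under 0.05. Fadd is filled in 9 of 14 settings and stays between 0.17 and 0.24, Mlkl is never filled, and Zbp1 runs from 0.04 to 0.28.

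Markers of other cell types were compared on scan day 2, the day on which Fadd, Mlkl and Zbp1 passed the unadjusted threshold. Of 8 B-cell markers, 0 lay higher in Sting gt/gt mice and 7 passed that threshold downward by limma, where 12.3% of all genes did, with means of 1.52 to 2.10 for WT and 1.12 to 1.52 for Sting gt/gt mice (exact permutation p = 0.0571). On scan day 1 all 8 lay higher in Sting gt/gt mice (0.95 to 1.26 against 1.32 to 1.84, exact permutation p = 0.1, the smallest possible). Plasma-cell markers lay higher on scan day 2 for 5 of 7 genes (1.13 to 1.47 against 1.51 to 1.93, exact permutation p = 0.0286), neutrophil markers for 9 of 9 (4.70 to 4.90 against 4.47 to 5.45, exact permutation p = 0.286), and erythroid markers lower for 8 of 9 (4.90 to 5.35 against 4.52 to 4.85, exact permutation p = 0.0286). No marker in these lists was below background on any array, though the neutrophil list was without Ly6g, which was not tested. On scan day 2 the list mean differed by -0.07 for T cells, 0.09 for NK and cytotoxic cells and 0.06 for macrophages and monocytes. It differed by 0.11 for dendritic cells and -0.11 for germinal centre B cells. For these lists the exact permutation p-values ran from 0.371 to 0.8. The part of these cell types in the differences of Fadd, Mlkl and Zbp1 was not tested.

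The rest of the pathway gave no gene past the threshold. Of 67 other genes of death signaling, 66 were tested, and the log2 difference was above 0 in 38 of them and below in 28 (median 0.01). At an unadjusted p of 0.05 by limma 0 of the 66 passed, with 3.48% of all genes past it, and 0 passed after adjustment. The methods' t-test on the same values found 1 (4% of all genes passed it), and the exact Mann-Whitney test 0 (2.87% of all genes). The limma fit with array weights and an intensity trend found 7 (17.5% of all genes). With scan day as a block 2 passed, among them Tnfrsf1b, where 7.27% of all genes did. The shares of the 66 genes were thus below those of all genes in each of these fits.

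Among 7 other receptors of the TNF receptor family tested, most with a death domain and some, such as Tnfrsf1b and Tnfrsf12a, without one, the highest difference was that of Tnfrsf1b, the second receptor of TNF, at 0.29 (SE 0.17), and the lowest that of Tnfrsf25, the receptor of TL1A, at -0.13 (SE 0.18). Within scan day 2 Tnfrsf1b was higher by 0.57 in Sting gt/gt mice (unadjusted p = 5.0e-04 by limma, exact permutation p = 0.0286). Within scan day 1 its difference was -0.10. Of all genes, 23.3% passed an unadjusted p of 0.05 by limma on scan day 2 (11% upward). The 7 ligands reached from -0.19 (SE 0.15) for Tnfsf15, which encodes TL1A, to 0.25 (SE 0.24) for Tnf. Tnf, the prototype of the ligands, was higher on scan day 1 by 0.72 (unadjusted p = 0.0169 by limma) and at -0.11 on scan day 2. The share of all genes past 0.05 on scan day 1 was 3.86%. None of these ligands or receptors passed over all mice.

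Of the 23 adaptors and ubiquitin enzymes of the complexes, 11 lay above 0 and 12 below. The ends of this list were Tab1, a partner of the kinase TAK1, at 0.17 (SE 0.12) and Traf5, an adaptor of TNF receptors, at -0.18 (SE 0.21). Of 14 genes of the caspase cascade 12 lay above 0 over all mice, where 54.5% of all genes did, but 10 within scan day 1 and 6 within scan day 2, with Casp9, the initiator of the mitochondrial pathway, lowest over all mice at -0.07 (SE 0.12). The 15 partners of necroptosis reached from Aurka, a mitotic kinase, at -0.14 (SE 0.15) to Hsp90ab1, a chaperone that RIPK3 and MLKL need, at 0.13 (SE 0.12). Hsp90ab1 lay at -0.21 on scan day 1 and 0.39 on scan day 2.

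**Figure D5:**
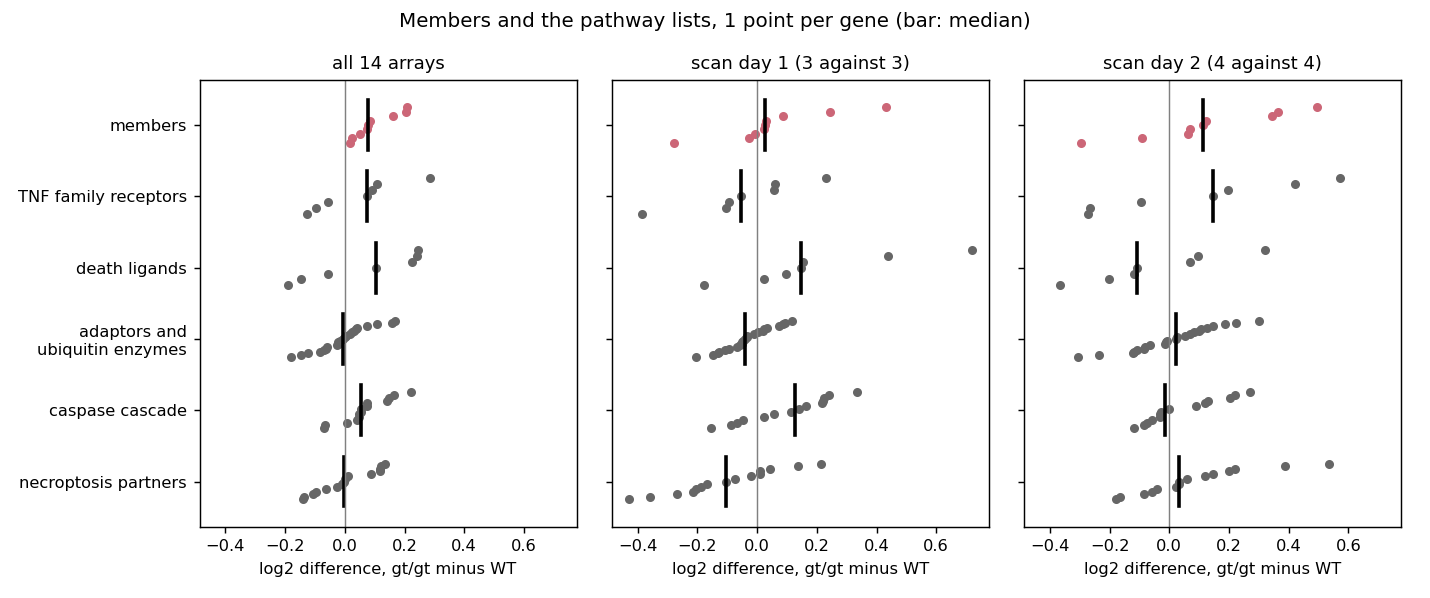
Log2 difference (Sting gt/gt minus WT) of each gene, 1 point per gene, for the 9 genes and the 5 lists of other pathway genes, over all arrays and within each scan day, with the median of each list as a bar. Over all arrays the points lie between -0.19 and 0.29, and they spread further within each scan day.

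The 9 genes did not move as one unit from mouse to mouse. After the mean of each scan day was taken off, the correlations of the 36 pairs over 14 arrays had a median of 0.25. They ran from -0.57, for Fasl with Fadd, to 0.84, for Mlkl with Zbp1. Fadd correlated with Zbp1 at 0.55 and with Mlkl at 0.51. Genotype means were not taken off, so genotype differences remain in these values. Of the 36 pairs, 20 were positive on both days, 4 negative on both and 12 of opposite sign. The arrays share scaling and sample makeup, and these are descriptions.

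Over 14 arrays with the scan-day means taken off, and among 14721 named genes, the genes whose pattern was most like each of the 9 were the following. Those nearest to Fas were Tcn2 (r = 0.943), Grcc10 (0.941) and Tnfaip8l1 (0.927). Those nearest to Fasl were Ms4a4b (0.966), Ppm1j (0.943) and Zc3h12c (0.924). None of the 9 genes was among the 3 nearest of another. Those nearest to Fadd were Ndufaf8 (0.949), Nupl2 (0.945) and Dad1 (0.940). Those nearest to Casp8 were Slc28a2b (0.958), Vipas39 (0.927) and Tnf (0.900). Tnf was the one pathway gene found in this way. Those nearest to Cflar were 1600010M07Rik (0.941), Gem (0.937) and Phlda1 (0.926). Ripk1 had the weakest neighbours, namely Nxt2 (0.865), Emc4 (0.861) and Hpse (0.840). Those nearest to Ripk3 were 9030619P08Rik (0.904), Ly6a (0.901) and Aldh1l1 (0.884). Mlkl lay nearest to Arl1 (0.957), Nln (0.920) and Eif6 (0.906), and Zbp1 to Ifi47 (0.918), Psmb10 (0.903) and Ifitm3 (0.902).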

How the data were processed

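RNA of splenocytes (100 ng per mouse) was labelled with Cy3 by the submitters. Per the file headers, the authors made the intensity values with Agilent Feature Extraction 11.0.1.1, which corrects each spot's background and does not scale between arrays. The series table that the authors deposited holds log2 values that correlated with the scanner values of the same array at 0.997 to 0.999. Its column medians were 5.49 to 5.52, and its normalization stays unknown. It was used as an alternative.

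Here the log2 of the processed intensity was taken, less the 75th percentile over an array's 59305 non-control spots. Spots the scanner software marked as outliers were dropped, leaving 0 to 3 probes of an array without a value, and spots of a probe averaged. A probe was kept if it stood well above background on 7 or more of the 14 arrays (31766), and the brightest kept probe stood for its gene, which gave 24908 genes. Probes were named through RefSeq accessions (58.3% matched a symbol, 14729 of the genes tested). The number of arrays limits the precision, and pooled standard errors also hold the shift between scan days. The 2 genotypes were compared with limma 3.58.1 in R 4.3.3, without covariates, over all genes, with an unadjusted p of 0.05 as the threshold after the study's methods and Benjamini-Hochberg adjustment beside it. Exact permutation tests over mice were two-sided. Those of the change between scan days shuffled genotypes within each day. They thus assume no genotype difference on either day, rather than an equal difference on both. The labels number the mice but do not say that they were housed or treated apart, so p-values measure the spread between these mice. Same-numbered mice deviated together (correlations 0.156 to 0.533 for the 7 numbers). The pairing rests on this check alone and follows the scan day, since with the scan-day means off the correlations were -0.408 to 0.248. The fit was tested on simulated data.

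The text names the 9 genes with all probes, pathway genes past the threshold, the highest and lowest of each pathway list, and the 3 genes most like each of the 9. Not every gene under this rule is named, since 1 is not reported here. The 9 genes and all lists were chosen with earlier results of these data known. The alternatives were the scaling, background correction, value source, filter, flags, probe choice, test, replicate block, scan day, slide and leaving out each mouse. No protein sequence was used here.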

Additional observations from a re-analysis of the deposited data

Results flagged for a closer look

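The genotype difference of Fadd (Sting gt/gt minus WT) was larger on scan day 2 than on scan day 1 by 0.319 (log2). This change passed the exact permutation of genotypes within scan days (p = 0.03, two-sided), among 15 probes tested. That permutation assumes no genotype difference on either day, rather than an equal difference on both. The same change of the brighter Zbp1 probe was 0.773 (exact permutation p = 0.0357). Of 9 genes these were 2, where 18% of all genes passed an unadjusted p of 0.05 for this change by limma. For the other probe of Zbp1, Sting gt/gt replicate 1, at a log2 signal of -1.002, stood apart from the other 6 mice of its genotype, since its gap to the nearest took 0.59 of the group's range which is above Dixon's 95% critical value. Of 30 groups tested in this way 1 stood out, and chance gives about 1 in 20.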

How the results depend on the processing

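Over 18 alternatives besides leaving out mice, the log2 difference of Ripk1 and of Fadd kept its sign. The call of Fadd was lost in 6, with log2 differences of 0.20 with median centring, 0.15 without scaling, 0.21 with the replicate block, 0.03 within scan day 1, 0.07 with slide as a fixed block and 0.15 with slide as a random block. With this pairing by replicate number 0 of the 9 genes passed, and 1416 of all genes. Genes past the threshold were 868 (464 higher and 404 lower), and 250 higher and 568 lower with median centring, and 149 higher and 614 lower without scaling. They were 1928 with the series table and 1812 with scan day as a block. With array weights and an intensity trend together (array weights below) they were 4360. There were 5805 within scan day 2, 445 with slide as a random block and 496 to 1967 without a mouse. The highest of these last counts came without Sting gt/gt replicate 1. Of the 9 genes, 0 passed with median centring, without scaling, within scan day 1 and with slide as a fixed or random block, 2 with array weights (Fadd and Mlkl), 3 within scan day 2 and 0 to 1 without a mouse. Of the 15 probes 1 passed, 0 with median centring or without scaling and 0 to 1 without a mouse. For the change between scan days 2 of 9 passed, 1 without scaling and 0 to 3 without a mouse, with 0 without WT replicate 1, 3, 4 or 5 or Sting gt/gt replicate 3. Of the 66 other pathway genes, 0 passed, 1 with normexp, the methods' t-test or slide as a fixed block, 2 with the series table, scan day as a block or within scan day 1, 6 within scan day 2, 7 with array weights and 0 to 4 without a mouse.

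Signs turned without scaling for Casp8 (-0.0027), Cflar (-0.0291) and Fasl (-0.0375), within scan day 2 for Casp8 (-0.0925) and Fasl (-0.295), and within scan day 1 for Cflar (-0.0273), Mlkl (-0.0055) and Zbp1 (-0.28). With slide as a fixed block they turned for Cflar (-0.0677), Fas (-0.0205), Mlkl (-0.16), Ripk3 (-0.0523) and Zbp1 (-0.31), with slide as a random block for Cflar (-0.0153), Fas (-0.0063), Ripk3 (-0.0013) and Zbp1 (-0.10), and with array weights for Fasl (-0.18). Without a mouse, Casp8 lay between -0.0555 and 0.16, Cflar between -0.0114 and 0.0578 and Fasl between -0.13 and 0.12. The cause was not tested. All 15 probes were well above background on all arrays. With scan day as a block, the SE of the Casp8 difference went from 0.22 to 0.12 and that of Fas from 0.16 to 0.09.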
